A study of Mus musculus with 12 samples.

Results

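A group of 7 genes that mature and immature red cells use was followed through early differentiation of mouse embryonic stem cells (ESCs). They are the embryonic globins Hbb-bh1, Hba-x and Hbb-y, the adult alpha globin Hba-a1, the heme enzyme gene Alas2, the receptor gene Epor and the transcription factor gene Nfe2, which together are 7 of the 80012 loci counted in the series. They were picked by name and for their values in these libraries, above all because a few libraries held most of the globin counts. A member was the locus of the authors' transcript assembly whose transcripts matched the gene or were isoforms of it. Their levels and fold changes are therefore given as a description, without p-values. Calls of the fit over all loci are counted for them once, with nothing read from the counts, and adjusted p-values are given only for other genes.

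RNA-Seq libraries were made from one C57BL/6 ESC line that carries EGFP at the start of the Eomes gene, so that green fluorescence reports this T-box factor of the mesendoderm. The ESC group was undifferentiated, at day 0, and grown on mouse embryonic fibroblast feeders. The other groups came from embryoid bodies of the same line at day 3, sorted by fluorescence into Eomes-negative cells (Eo-) and Eomes-positive cells (Eo+). Each group held 4 libraries, numbered 1, 2, 5 and 6, and libraries with one number are called a set here because the study describes 4 differentiation sets. The sorted fractions of a set deviated together from their group means, so Eo- and Eo+ were also compared within sets. The line is a single engineered one, and each sorted sample is a mixture of all cells on one side of the fluorescence gate. Eomes itself was at 37.8 to 60.5 CPM in ESC, 112 to 164 CPM in Eo- and 446 to 655 CPM in Eo+ libraries, where CPM is the count scaled to a common library size after TMM normalisation. The pluripotency gene Zfp42 was at 398 to 577, 31.3 to 48.9 and 3.84 to 4.81 CPM in the same order, so the groups carried the markers of their labels, although Eo- cells were not free of Eomes transcript.

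Total locus counts were 648413022 to 837308168 per library. At this depth 3 counts amounted to 0.00349 to 0.00474 CPM, and a level below that is read as not detected. Feeder markers, among them collagens, summed to 106 to 268 CPM in ESC libraries and to 28.9 to 58.2 CPM in sorted libraries. Libraries Eo- 1 and Eo+ 1 stood apart from the other libraries of their groups. Of 13842 loci at 1 CPM or more in Eo- 1, 49 exceeded the next Eo- library at least 5-fold, and 64 of 13603 did so in Eo+ 1. The same count was 1 in ESC 2 and 0 in each of the other 9 libraries. The fold changes of the 7 genes are therefore given with set 1 and without it.

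The first blood cells of a mouse embryo are primitive red cells, which arise in the yolk sac from mesoderm that also gives rise to endothelium. Hemoglobin joins alpha-like and beta-like globin chains around heme. Primitive red cells use zeta globin (Hba-x) with the embryonic beta-like chains (Hbb-bh1 and Hbb-y), and the locus of each family switches later to adult genes, which lie beside the embryonic ones on the same chromosome. Erythroid promoters and enhancers are known for sites bound by GATA1, by KLF1 through CACCC boxes and by NF-E2, a dimer of the Nfe2 product and a small Maf protein.

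The RefSeq promoter table used here has entries for 5 of the 7 members. The 250 bases before the RefSeq start are shown for the 2 alpha-like globins, the embryonic beta-like globin Hbb-y and Alas2, because these genes share a lineage but, as described below, not the same pattern across the sorted fractions. All windows are on GRCm38.p6, the assembly behind mm10, and are written 5′ to 3′ on the gene's strand. Hba-x is at chr11:32276350-32276599 (plus strand), Hba-a1 at chr11:32283422-32283671 (plus strand), Hbb-y at chr7:103853208-103853457 (minus strand) and Alas2 at chrX:150547167-150547416 (plus strand). The assembled transcripts of these genes begin further 5′ than the RefSeq start, within the windows. Capitals mark each match, on either strand, to a GATA site (the letters GATA with A or T before them and A or G after them), a CACCC box (those letters), a CCAAT box (those letters) or a TATA box (TATAA).
Hba-x: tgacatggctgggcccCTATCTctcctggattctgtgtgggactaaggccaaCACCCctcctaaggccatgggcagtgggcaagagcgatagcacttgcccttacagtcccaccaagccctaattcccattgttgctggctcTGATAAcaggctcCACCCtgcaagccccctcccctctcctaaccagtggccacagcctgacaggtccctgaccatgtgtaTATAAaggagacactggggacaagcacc
Hba-a1: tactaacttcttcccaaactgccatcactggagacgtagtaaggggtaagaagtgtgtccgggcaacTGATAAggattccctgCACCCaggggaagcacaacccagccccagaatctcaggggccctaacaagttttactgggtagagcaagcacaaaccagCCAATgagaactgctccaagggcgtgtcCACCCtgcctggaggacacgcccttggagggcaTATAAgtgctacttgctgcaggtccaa
Hbb-y: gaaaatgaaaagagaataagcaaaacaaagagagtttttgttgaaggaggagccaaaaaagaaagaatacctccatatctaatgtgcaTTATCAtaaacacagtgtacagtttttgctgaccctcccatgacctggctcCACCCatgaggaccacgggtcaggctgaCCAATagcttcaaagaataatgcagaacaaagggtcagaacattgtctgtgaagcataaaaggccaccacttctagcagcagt
Alas2: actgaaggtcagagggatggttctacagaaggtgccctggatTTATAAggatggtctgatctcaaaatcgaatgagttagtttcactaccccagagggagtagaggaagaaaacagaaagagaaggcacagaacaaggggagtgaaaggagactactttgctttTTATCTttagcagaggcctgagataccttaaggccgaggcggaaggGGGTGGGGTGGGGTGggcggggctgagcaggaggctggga

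Of 27025 RefSeq promoter windows of this length, 27.1% held a GATA site, 51.3% a CACCC box, 34.5% a CCAAT box and 23.5% a TATA box. All 4 windows shown held a GATA site and a CACCC box. Hba-x had 2 GATA sites, at 234 to 229 and 108 to 103 bases before the start, and 2 CACCC boxes. Hba-a1 had 1 GATA site, at 183 to 178 bases, 2 CACCC boxes and a CCAAT box. A TATAA lay 28 to 24 bases before the start of Hba-x and 27 to 23 bases before that of Hba-a1. Hbb-y had 1 GATA site, 1 CACCC box and 1 CCAAT box. Alas2 had 1 GATA site, 86 to 81 bases before its start, and 3 CACCC boxes in a row on the opposite strand, between 40 and 26 bases. Its 2 matches to TATAA overlap on opposite strands about 200 bases upstream, at 208 to 203 bases. The word TGAGTCA of an NF-E2 site, which 4.43% of windows held, was in none of the 4. These are matches of letters and not evidence of binding.

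Hbb-bh1 (XLOC_065660, ENSMUSG00000052217, chr7:103841636-103843164 in mm10, minus strand) encodes an embryonic beta-like globin. It was at 0, 0.0154, 0 and 0.0213 CPM in ESC libraries 1, 2, 5 and 6, from 0, 11, 0 and 14 counts. It was at 72.3, 1.47, 1.79 and 2.5 CPM in the Eo- libraries, from 62184, 1170, 1378 and 2067 counts. In the Eo+ libraries it was at 7.52, 0.0528, 1.04 and 0.207 CPM, from 5806, 40, 737 and 131 counts. Every sorted library lay above every ESC library, and Eo- 1 stood far above all others, while Eo+ 1 exceeded the other 3 Eo- libraries. The group means ± SD (n = 4) were 0.00917 ± 0.0109, 19.5 ± 35.2 and 2.2 ± 3.57 CPM, so the SD exceeded the mean in all 3 groups. Without set 1 they were 0.0122, 1.92 ± 0.53 and 0.432 ± 0.529 CPM (n = 3). In the fit over all loci, Hbb-bh1 had a log2 fold change ± SE of 10.53 ± 4.60 in Eo- vs ESC (8.36 ± 1.75 without set 1). For Eo+ vs Eo- it was -3.12 ± 1.40 (-3.07 ± 0.72 without set 1). In bulk RNA of this kind, fewer expressing cells and less RNA per cell cannot be told apart.

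Hba-x (XLOC_009405, ENSMUSG00000055609, chr11:32276400-32278116, plus strand) encodes zeta globin, the embryonic alpha-like chain. ESC libraries held it at 0.00759, 0.0098, 0.00126 and 0.00913 CPM, from 6, 7, 1 and 6 counts, so it was not detected in ESC 5. Eo- libraries held 16.0, 0.741, 0.310 and 1.08 CPM, from 13744, 590, 238 and 894 counts. Eo+ libraries held 0.269, 0.0555, 0.0548 and 0.0284 CPM, from 208, 42, 39 and 18 counts. The 3 groups did not overlap, with ESC lowest, Eo+ between and Eo- highest, and set 1 was again the highest in both fractions. Means ± SD were 0.00694 ± 0.0039, 4.53 ± 7.64 and 0.102 ± 0.112 CPM, and without set 1 0.00673, 0.711 ± 0.387 and 0.0462 ± 0.0154 CPM. On the log2 scale Hba-x was 7.86 ± 2.42 higher in Eo- than in ESC cells (6.81 ± 1.03 without set 1). Its Eo+ level differed from ESC by 3.55 ± 2.61 (3.01 ± 1.13) and from Eo- by -4.31 ± 1.28 (-3.79 ± 0.62).

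Hbb-y (XLOC_065661, ENSMUSG00000052187, chr7:103849907-103853264, minus strand) encodes the other embryonic beta-like chain, epsilon-y. Its locus was joined by assembly with the pseudogene Hbb-bh0, so the counts cannot be split between them. ESC libraries held 0.0126, 0.0266, 0.0164 and 0.0183 CPM, Eo- libraries 1.86, 0.161, 0.0521 and 0.146 CPM, and Eo+ libraries 0.229, 0.0172, 0.0450 and 0 CPM. The counts in these libraries were 10, 19, 13 and 12, then 1600, 128, 40 and 121, then 177, 13, 32 and 0. All Eo- libraries lay above all ESC libraries, but Eo+ overlapped both. Without set 1 the means were 0.0204 CPM in ESC, 0.120 ± 0.059 CPM in Eo- and 0.0207 ± 0.0227 CPM in Eo+. The log2 fold change between Eo- and ESC was 3.61 ± 1.49 with set 1 and 2.40 ± 0.86 without it.

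Hba-a1 (XLOC_009406, ENSMUSG00000069919, chr11:32283511-32284465, plus strand) encodes adult alpha globin and lies 3′ of Hba-x. ESC libraries held 0.0493, 0.0392, 0.0176 and 0.0517 CPM, from 39, 28, 14 and 34 counts. Eo- libraries held 2.44, 0.192, 0.0872 and 0.198 CPM, from 2100, 153, 67 and 164 counts. Eo+ libraries held 0.0544, 0.0185, 0.0548 and 0.00632 CPM, from 42, 14, 39 and 4 counts. Eo- lay above both other groups in every library, whereas Eo+ and ESC overlapped. Unlike the 3 embryonic globins, Hba-a1 in Eo+ 1 was not the highest of its group, at 0.992 times the next library. Log2 fold changes over ESC were 3.06 ± 1.09 in Eo- cells (2.19 ± 0.61 without set 1) and -0.49 ± 1.45 in Eo+ cells (-0.72 ± 0.80). Eo+ differed from Eo- by -3.55 ± 1.21 (-2.91 ± 0.69). Of its 600 windows of 100 bases, 339 (56.5%) are identical in Hba-a2, so reads that fall wholly there cannot be assigned to one gene. No such window of Hbb-bh1, Hba-x or Hbb-y was shared with another globin.

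Alas2 (XLOC_076244, ENSMUSG00000025270, chrX:150547375-150570638, plus strand) encodes the erythroid form of the first enzyme of heme synthesis. ESC libraries held 0.0417, 0.0392, 0.0378 and 0.103 CPM, Eo- libraries 2.15, 0.142, 0.0794 and 0.272 CPM, and Eo+ libraries 2.02, 0.16, 0.27 and 0.441 CPM. Every Eo+ library lay above every ESC library, while Eo- 5 lay below ESC 6, and the sorted fractions overlapped. Set 1 was the highest in both fractions, by 7.91 times the next Eo- library and 4.59 times the next Eo+ library. The means ± SD were 0.0555 ± 0.032, 0.661 ± 0.997 and 0.723 ± 0.874 CPM, and without set 1 0.0601, 0.164 ± 0.098 and 0.290 ± 0.141 CPM. Log2 fold changes over ESC were 2.54 ± 1.20 in Eo- cells (1.47 ± 0.62 without set 1) and 3.16 ± 1.18 in Eo+ cells (2.31 ± 0.59). The loci of Apex2 and Mir3620 and 4 unnamed assembled loci lie on its opposite strand. The authors' counting used strand.

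Epor (XLOC_072195, ENSMUSG00000006235, chr9:21958899-21963576, minus strand) encodes the erythropoietin receptor, through which the hormone keeps red cell precursors alive. It was well above the floor in ESC libraries, at 2.29, 3.48, 3.22 and 2.83 CPM. Eo- libraries held 7.53, 5.54, 4.88 and 4.81 CPM and Eo+ libraries 7.47, 5.57, 4.83 and 5.86 CPM. All sorted libraries lay above all ESC libraries, and both fractions covered the same range. Epor was also the member in which set 1 stood out least, by 1.36 times in Eo- and 1.27 times in Eo+. Its log2 fold change over ESC was 0.94 ± 0.19 in Eo- cells (0.68 ± 0.16 without set 1) and 1.01 ± 0.19 in Eo+ cells (0.77 ± 0.16), and Eo+ differed from Eo- by 0.06 ± 0.18 (0.09 ± 0.15).

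Nfe2 (XLOC_026907, ENSMUSG00000058794, chr15:103248212-103258403, minus strand) encodes the large subunit of NF-E2, which acts at globin genes and in platelet formation. ESC libraries held 0.531, 0.773, 0.433 and 0.479 CPM. Eo- libraries held 5.97, 1.12, 1.09 and 1.31 CPM, and Eo+ libraries 4.31, 0.473, 0.959 and 1.10 CPM. Eo- lay above ESC in every library, while Eo+ 2 lay within the ESC range. Means ± SD were 0.554 ± 0.151, 2.37 ± 2.40 and 1.71 ± 1.75 CPM, and without set 1 0.562, 1.17 ± 0.12 and 0.845 ± 0.330 CPM. Its log2 fold change over ESC was 1.72 ± 0.64 in Eo- cells (1.11 ± 0.32 without set 1) and 1.17 ± 0.66 in Eo+ cells (0.54 ± 0.33).

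**Figure D1:**
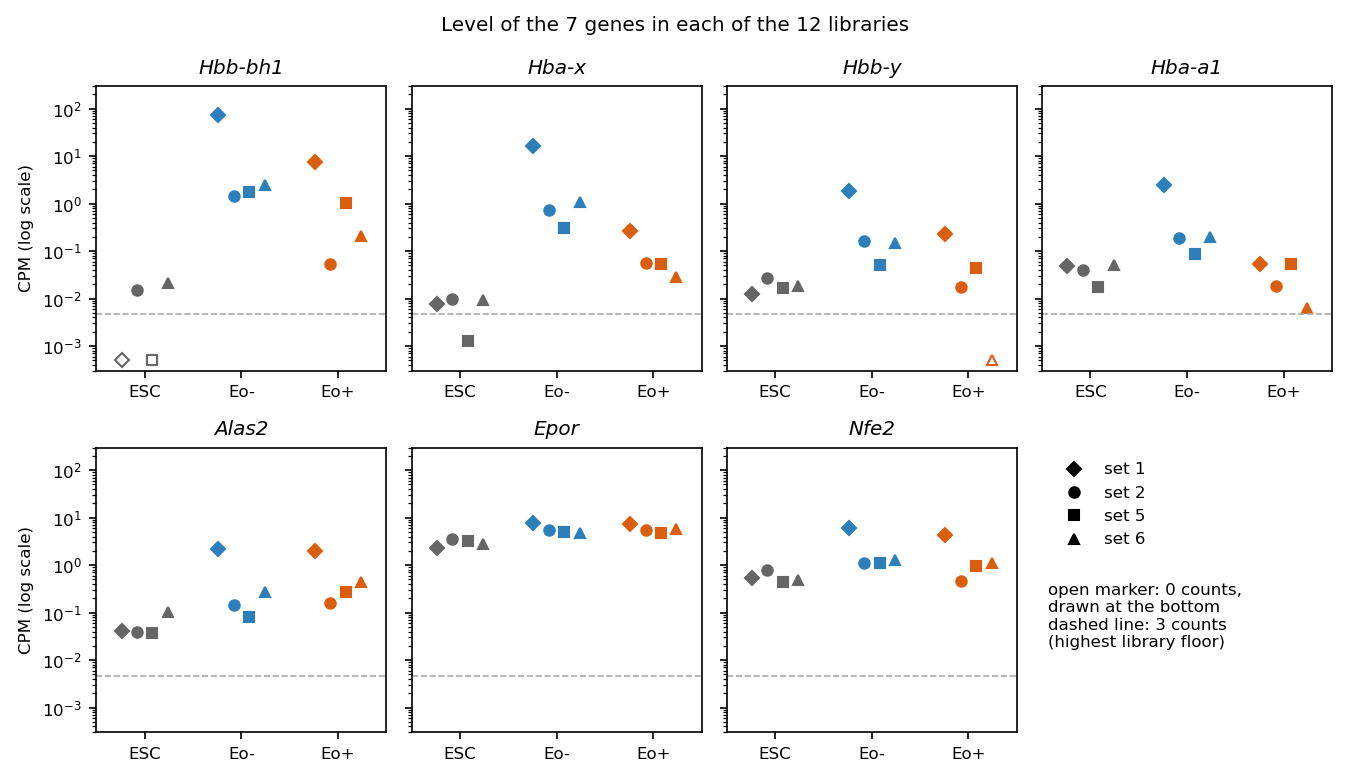
Level of each of the 7 genes (CPM, log scale) in each of the 12 libraries. Colours give the groups, marker shapes the sets, open markers at the bottom libraries with 0 counts, and the dashed line the highest floor of 3 counts. The diamond of set 1 is the highest Eo- library in all 7 panels and the highest Eo+ library in all but Hba-a1, and it is the highest ESC library in no panel.

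The Eo- 1 library alone held 83.2% of the CPM of Hbb-bh1 summed over the 12 libraries, 86.2% of that of Hba-x, 76.0% of that of Hba-a1 and 72.0% of that of Hbb-y. The share was 37.4% for Alas2, 32.2% for Nfe2 and 12.9% for Epor. The 3 libraries of set 1 together held 58.3% to 91.8% for 6 members and 29.6% for Epor. The embryonic globin excess was not matched in the day 0 library of set 1, which held 0 counts of Hbb-bh1 and the lowest ESC level of Hbb-y and Epor.

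Given only as counts that follow from how the genes were picked, 4 of the 7 members were called higher in Eo- than in ESC cells (Hba-x, Hba-a1, Epor and Nfe2) at a limma adjusted p of at most 0.05. Of all 30047 loci tested, 25.2% were called higher there and 53.0% in either direction. The split of calls over all loci was 7564 higher and 8373 lower, and 9670 and 6912 when libraries were scaled by their totals. In Eo+ vs ESC 2 were called higher (Alas2 and Epor), against 28.3% of all loci. In Eo+ vs Eo- 2 were called lower (Hba-x and Hba-a1), against 19.7% of all loci. With the set as a block, members called were 7, 5 and 4, and without set 1 they were 6, 4 and 4. Without set 2 they were 2, 2 and 0, without set 5 they were 3, 1 and 2, and without set 6 they were 1, 1 and 0. The libraries of the groups compared did not overlap for 6, 4 and 2 members, against 47.1%, 52.4% and 38.3% of all loci. Nothing is read from these counts.

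Both fractions of a number were then compared directly. All 4 globins were higher in the Eo- than in the Eo+ fraction in 4 of 4 sets. The Eo- level of Hbb-bh1 was 9.62, 27.8, 1.73 and 12.1 times the Eo+ level in sets 1, 2, 5 and 6, and that of Hba-x was 59.4, 13.4, 5.65 and 38.0 times. For Hba-a1 the ratio was 44.9, 10.4, 1.59 and 31.4. For Hbb-y it was 8.12, 9.36 and 1.16 in sets 1, 2 and 5, and Eo+ 6 held no count. Set 5 had the smallest ratio for every globin. Thus the direction did not rest on set 1, although the levels did. Of all 30047 loci, 31.1% were higher in Eo- in 4 of 4 sets and 26.4% were higher in Eo+ in 4 of 4.

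Among the other members only Nfe2 was likewise higher in Eo- in 4 of 4 sets, by 1.38, 2.37, 1.14 and 1.19 times. The Eo- to Eo+ ratio of Alas2 was 1.06, 0.888, 0.294 and 0.618, and Eo+ was the higher fraction in 3 of 4 sets. That of Epor was 1.01, 0.996, 1.01 and 0.822.

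**Figure D2:**
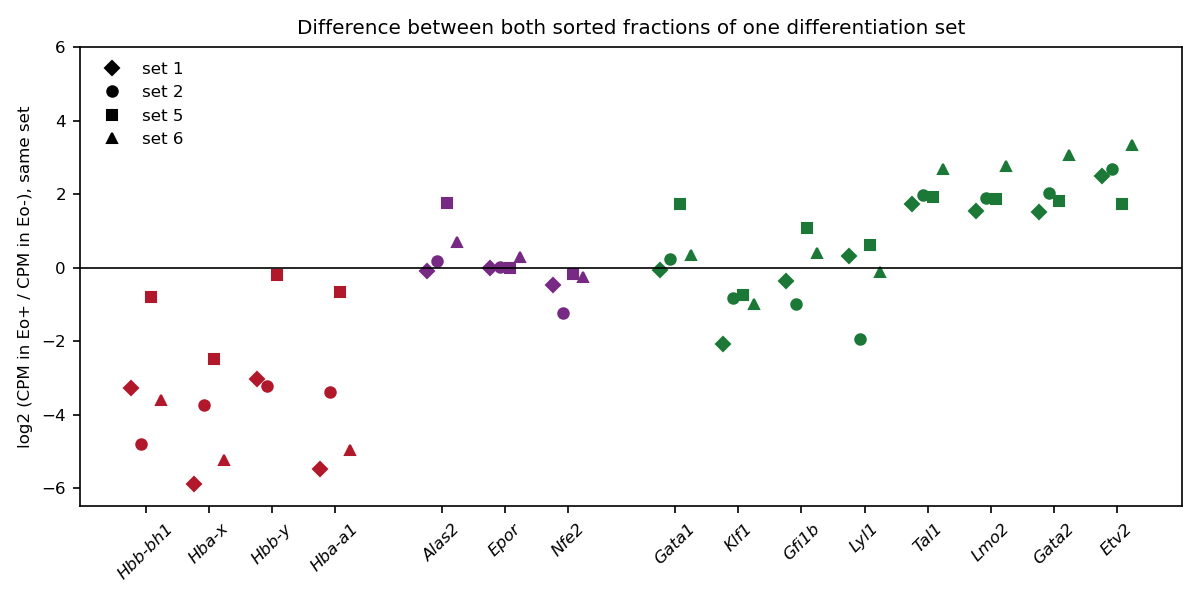
Log2 ratio of the CPM in Eo+ to that in Eo- of the same set, for the 4 globins (red), the other members (purple) and regulators of early blood (green), with 1 marker per set. Hbb-y in set 6 is left out because Eo+ 6 had 0 counts. All globin markers lie below 0, those of Epor lie near 0, and Tal1, Lmo2, Gata2 and Etv2 lie above 0 in all 4 sets. Klf1 lies below 0 in all 4 sets, and Gata1, Gfi1b and Lyl1 lie on both sides of 0.

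To compare globins with each other, levels were taken per length as FPKM, which divides CPM by the summed exon length of the locus. The order was Hbb-bh1, Hba-x, Hba-a1 and Hbb-y in all 4 Eo- libraries. Mean FPKM in Eo- cells was 31.8, 4.83, 0.899 and 0.597 in that order. Hbb-bh1 made up 93.3% to 98.3% of the 2 beta-like members and Hba-x 75.5% to 85.0% of the 2 alpha-like members in Eo- libraries. The beta-like sum was 120 and the alpha-like sum 20.05 FPKM in Eo- 1, a ratio of 5.97. The ratio was 2.5, 6.80 and 3.03 in Eo- 2, 5 and 6, so the excess of beta-like over alpha-like transcript was present in every Eo- library. In Eo+ libraries it was 35.3, 1.28, 13.8 and 8.85, from alpha-like sums of at most 0.354 FPKM. In ESC libraries neither family exceeded 0.0734 FPKM, Hba-a1 led, and no ratio is given. Uncounted reads shared by Hba-a1 and Hba-a2 would add to the alpha-like sums.

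The adult beta globins Hbb-bs and Hbb-bt, the main beta chains of adult red cells, are not members. Both passed the filter for testing only through Eo- cells, the group in which they were high, so their differences are given as values without a test. Both had 0 counts in all 4 ESC libraries. Hbb-bs was at 1.06, 0.126, 0.0625 and 0.138 CPM in Eo- libraries, from 910, 100, 48 and 114 counts, and at 0.0751, 0.00528, 0.00422 and 0.00158 CPM in Eo+ libraries, from 58, 4, 3 and 1 counts. Hbb-bs was at least 341-fold higher in Eo- than in ESC cells, or 78.4-fold without set 1, taking 3 counts over the ESC libraries as the floor. Its log2 fold change in Eo+ vs Eo- was -4.41 ± 1.28. Hbb-bt, at 0.319, 0.0276, 0.00911 and 0.0339 CPM in Eo- libraries, was at least 95.9-fold higher than in ESC, and 16.99-fold without set 1. In Eo+ libraries Hbb-bt was at 0.0738, 0, 0.0112 and 0.00632 CPM, from 57, 0, 8 and 4 counts. Eo+ was thus the higher fraction in set 5, where the Eo- library held 7 counts. These genes share 62.6% (Hbb-bs) and 54.8% (Hbb-bt) of their 100-base windows with each other.

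Apart from Hbb-bs and Hbb-bt, 5 other globin loci were tested, with Hba-a2 and Hbq1b joined by assembly as 1 locus. In Eo- cells 0 were called higher and 2 lower against ESC, where 27.9% of all loci were called lower. In Eo+ cells 0 were called higher and 4 lower against ESC (31.1% of all loci), and 0 higher and 4 lower against Eo- (19.7% of all loci). Most of these loci passed the filter only through ESC and Eo- cells, so the counts are a description. Hbq1a, a theta globin gene at the 3′ end of the alpha cluster, was at 0.347 ± 0.092 CPM in ESC, 0.343 ± 0.079 in Eo- and 0.0726 ± 0.0366 in Eo+, a log2 difference of -2.33 ± 0.37 in Eo+ vs Eo-. The non-erythroid globin Mb, the oxygen store of muscle, differed by -4.29 ± 0.29 in Eo+ vs ESC. Ngb, a globin of neurons that passed the filter in all groups, fell there by 1.62 ± 0.21 (adjusted p = 8.75e-06). Hbb-bh2 was at 0 counts in ESC and at 0.1 CPM in Eo- 1, and was too low to be tested.

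The genes around the alpha cluster are expressed in many tissues. Nprl3, whose introns hold the alpha globin enhancers in mouse, was at 24.5 CPM in ESC, 24.3 in Eo- and 33.2 in Eo+ cells. It did not pass in Eo- vs ESC (log2 fold change 0.01, adjusted p = 0.946) and rose in Eo+ vs Eo- by 0.45 (adjusted p = 0.00513). Mpg and Snrnp25 did not pass in Eo- vs ESC (adjusted p = 0.0712 and 0.0932), nor did Rhbdf1 (adjusted p = 0.434). Against ESC, Snrnp25 rose in Eo+ cells by 0.32 (adjusted p = 0.00737) and Rhbdf1 fell by 0.44 (adjusted p = 0.0193), and Rhbdf1 also fell in Eo+ vs Eo- by 0.58 (adjusted p = 0.00624). At the far side of the cluster Sh3pxd2b was at 17.1, 32.4 and 76.6 CPM and rose in Eo- vs ESC by 0.91 (adjusted p = 0.000313). In the beta domain the olfactory receptor genes Olfr66 and Olfr64 were at 0 in all 12 libraries.

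**Figure D3:**
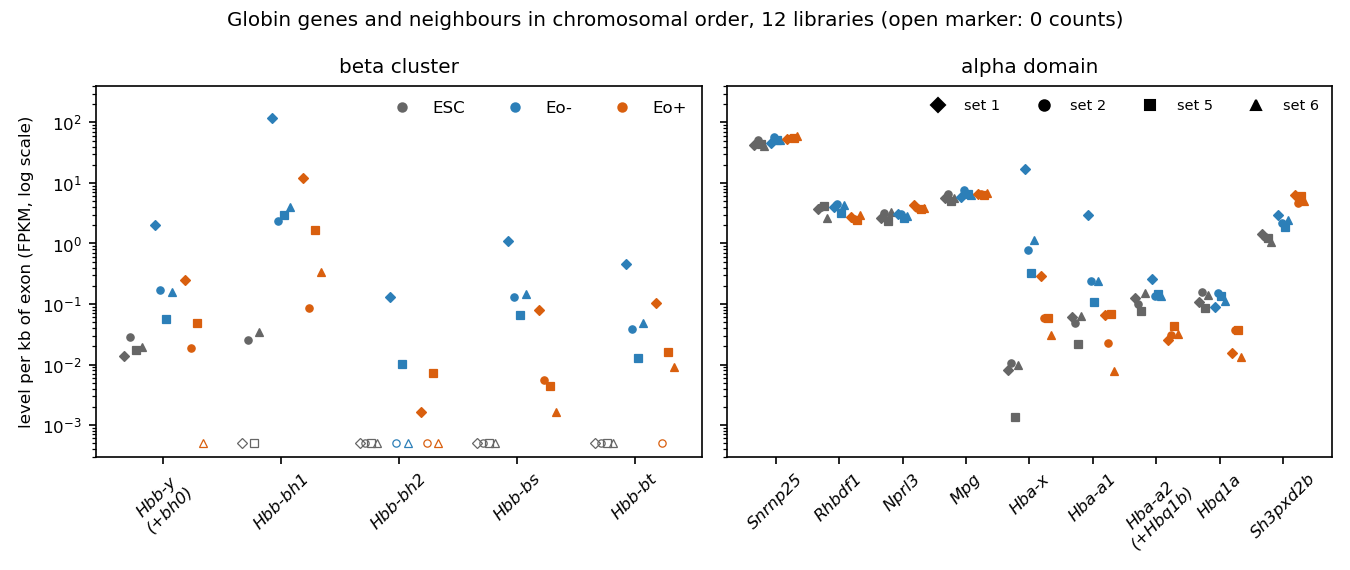
Level per length (FPKM, log scale) of the globin genes and some of their neighbours in chromosomal order, in the 12 libraries, with colours for groups and shapes for sets. Open markers at the bottom are libraries with 0 counts. All Eo- markers of Hbb-y, Hbb-bh1, Hbb-bs, Hbb-bt, Hba-x and Hba-a1 lie above the ESC markers of the gene, whereas those of Hba-a2 and Hbq1a overlap them.

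Erythroid genes outside the 7 members were counted on 5 lists covering heme synthesis, iron handling, red cell membrane and enzymes, erythropoietin and Kit signalling, and regulators. Of 71 genes named, 68 were found and 58 passed the filter. Between ESC and Eo- cells 22 rose and 12 fell, with a median log2 fold change of 0.13 beside 0.06 over all loci. Between ESC and Eo+ cells 32 rose and 15 fell, with a median of 0.47 beside -0.0025. Between Eo- and Eo+ cells 15 rose and 12 fell, with a median of 0.07 beside -0.08. The genes called, 34, 47 and 27 of 58, stand beside 53.0%, 59.3% and 37.1% of all loci. With the set as a block the counts were 41, 51 and 35. Leaving out loci that assembly joined with another gene, they were 30, 41 and 24 of 52, and with no filter on low levels 34, 48 and 28 genes were called.

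Among 9 other heme synthesis genes 3 rose and 3 fell in Eo- cells against ESC. In Eo+ cells 4 rose and 3 fell against ESC, and 2 rose and 0 fell against Eo-. Ppox, a late enzyme of the pathway, was at 16.6 ± 2.32 CPM in ESC and 26.8 ± 2.34 in Eo- cells, a rise of 0.70 ± 0.12 (adjusted p = 0.000207). Cpox, the enzyme before it, rose by 0.49 ± 0.11 in Eo+ vs Eo- (adjusted p = 0.00243). Alas1, the form of the first enzyme used in all tissues, was at 33.6, 27.6 and 26.4 CPM and fell in Eo+ vs ESC by 0.35 ± 0.10 (adjusted p = 0.00700). Fech, the enzyme that inserts iron, did not pass in any comparison, at 27.6 to 29.5 CPM in the group means. Alad, the gene of the list with the most counts, was joined by assembly with Pole3, and Uros, one of the falls against ESC in both fractions, with Dhx32, so their counts cannot be split.

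Among 8 iron genes 2 rose and 2 fell in Eo- cells against ESC. In Eo+ cells 3 rose and 3 fell against ESC, and 0 rose and 3 fell against Eo-. The iron exporter gene Slc40a1 rose in Eo- vs ESC, from 7.42 ± 1.45 to 22.7 ± 3.64 CPM (log2 1.62 ± 0.30, adjusted p = 0.000388), and Hmox1, whose product breaks heme down, fell from 163 ± 30.1 to 61.5 ± 0.66 CPM (log2 -1.39 ± 0.11, adjusted p = 1.42e-07). Steap3, an iron reductase of red cell precursors, fell in Eo+ vs Eo- by 0.96 ± 0.24 (adjusted p = 0.00509). The transferrin receptor gene Tfrc, at 273, 287 and 254 CPM, did not pass in any comparison. It was higher in Eo- than in Eo+ in 4 of 4 sets, by 1.06, 1.12, 1.16 and 1.21 times, and without set 1 it was lower in Eo+ vs Eo- (adjusted p = 0.0482) and in Eo+ vs ESC (adjusted p = 0.0340). With the set as a block over the sorted libraries the fractions also differed (adjusted p = 0.0139).

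Of 25 membrane and enzyme genes 15 were tested. Against ESC 9 rose and 3 fell in Eo- cells, and 8 rose and 5 fell in Eo+ cells. Against Eo- cells 3 rose and 6 fell in Eo+ cells. These falls include Slc4a1, the anion exchanger gene, which passed the filter only through ESC, and without it 2, 4 and 5 of 14 fell. Sptb, the gene of erythroid beta spectrin, rose in Eo- vs ESC by 2.43 ± 0.18, from 4.64 ± 0.693 to 24.8 ± 2.69 CPM (adjusted p = 9.23e-08). Slc4a1 was at 0.527, 0.268 and 0.02 CPM in ESC, Eo- and Eo+ cells. Tmod1, which caps actin in the membrane skeleton, had a log2 difference of 2.49 ± 0.62 between ESC and Eo+ cells. Prdx2, an abundant red cell peroxidase that other cells also use, was at 325, 418 and 536 CPM and rose in both, by 0.36 ± 0.06 in Eo- vs ESC (adjusted p = 0.000162). Hemgn, a gene of committed erythroid cells, was too low to be tested, at 0.0118, 0.0578 and 0.00953 CPM. Its Eo- mean rested on Eo- 1, at 0.188 CPM against 0.00126, 0.00521 and 0.0363 CPM in Eo- 2, 5 and 6, with Eo- 2 below the floor.

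For the signalling that Epor takes part in, 10 other genes were tested. Against ESC 1 rose and 2 fell in Eo- cells, and 8 rose and 2 fell in Eo+ cells. Against Eo- cells 5 rose and 1 fell in Eo+ cells. Jak2, the kinase bound to the receptor, was at 9.28 ± 1.53 CPM in ESC, 10.7 ± 2.09 in Eo- and 21.3 ± 2.45 in Eo+ cells and rose in Eo+ vs Eo- by 1.00 ± 0.14 (adjusted p = 7.4e-05). Kit, the receptor for stem cell factor, rose in the same comparison by 1.00 ± 0.23 (adjusted p = 0.00336), and its ligand gene Kitl by 2.64 ± 0.44 (adjusted p = 0.000271). Stat5b, a transcription factor that Jak2 activates, rose against ESC in both fractions, in Eo+ cells by 2.01 ± 0.23 (adjusted p = 2.29e-06). Socs3 and Pim1, targets of STAT signalling, fell in Eo- vs ESC, Socs3 from 89.9 ± 30.9 to 6.56 ± 0.962 CPM (log2 -3.72 ± 0.28, adjusted p = 7.88e-08). The hormone gene Epo shares its locus with Gnb2 and no value is given for it, but the locus is counted above. Without it, 9 genes were tested, of which 7 rose and 2 fell in Eo+ cells against ESC, and the other counts stay the same.

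**Figure D4:**
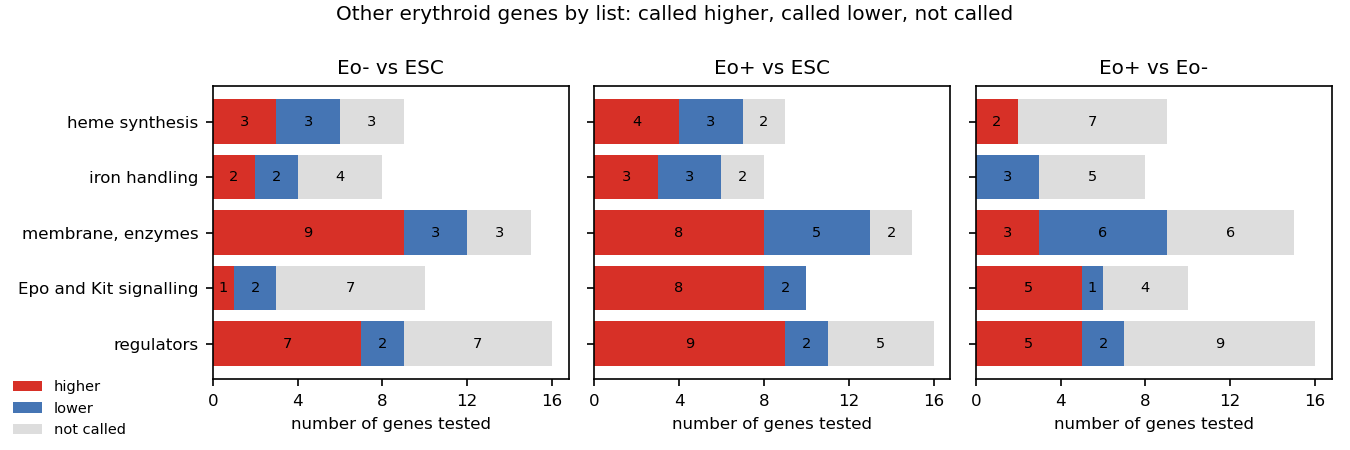
Number of other erythroid genes tested on each of the 5 lists that were called higher (red), called lower (blue) or not called (grey) by limma at an adjusted p of at most 0.05, in each comparison. Against ESC, calls run in both directions on every list in both fractions, and the Epo and Kit list has 8 higher, the joined locus of Epo and Gnb2 included, and 2 lower in Eo+ cells.

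Regulators of early blood, some of which also mark endothelial precursors, were called in both directions in each comparison. Of 16 tested 7 rose and 2 fell in Eo- cells against ESC. In Eo+ cells 9 rose and 2 fell against ESC, and 5 rose and 2 fell against Eo-. Tal1, a factor required for all blood, was at 0.986 ± 0.144, 11.2 ± 9.93 and 45.3 ± 31.9 CPM. In sets 1, 2, 5 and 6 Eo- libraries held 25.7, 6.94, 3.44 and 8.67 CPM and Eo+ libraries 85.2, 27.4, 13.0 and 55.4 CPM. Tal1 rose in Eo+ vs Eo- by 2.06 ± 0.57 (adjusted p = 0.0111), and its partner Lmo2 by 2.00 ± 0.40 (adjusted p = 0.00114). Etv2, which specifies the common precursor of blood and endothelium, rose by 2.55 ± 0.43 (adjusted p = 0.000319). These 3 genes and Gata2 were higher in Eo+ in 4 of 4 sets, opposite to the globins. Myb, by contrast, was at 4.92 ± 1.45, 32.5 ± 6.62 and 4.65 ± 2.24 CPM and fell in Eo+ vs Eo- by 2.90 ± 0.27 (adjusted p = 1.77e-06). Mafk, a small Maf partner of Nfe2, fell in Eo- vs ESC by 1.22 ± 0.10 (adjusted p = 1.7e-07). Lyl1, a relative of Tal1, had a log2 difference of 4.02 ± 0.93 there. Ldb1, which bridges GATA1 and TAL1 complexes, was at 219, 180 and 186 CPM and did not pass in any comparison.

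The erythroid master regulators were low and uneven. Gata1 was at 1.34, 0.897, 0.988 and 1.05 CPM in ESC libraries, 7.53, 0.874, 1.07 and 1.18 in Eo- and 7.22, 1.03, 3.53 and 1.5 in Eo+ libraries. Eo- 5 and Eo- 6 lay within the ESC range and Eo- 2 just below it, and Gata1 did not pass in Eo- vs ESC (log2 0.70 ± 0.68, adjusted p = 0.409) or Eo+ vs ESC (adjusted p = 0.12). With the set as a block both passed (adjusted p = 0.0462 and 0.00413), although ESC libraries deviated together with Eo- of their number only in sets 1 and 2. Without set 1 Gata1 was 0.08 higher on the log2 scale in Eo- vs ESC (adjusted p = 0.884). Klf1, the activator of adult beta globin, was at 0.642, 0.575, 0.621 and 0.517 CPM in ESC, 1.90, 0.412, 0.453 and 0.468 in Eo- and 0.453, 0.231, 0.27 and 0.235 in Eo+ libraries, higher in Eo- in 4 of 4 sets. It fell in Eo+ vs Eo- by 1.16 ± 0.43 (adjusted p = 0.0438), a call lost when any of 8 single libraries was left out, ESC 1, 2, 5 and 6, Eo+ 2, 5 and 6 and Eo- 1 (adjusted p up to 0.105), but kept without set 1 in all groups (adjusted p = 0.0138). Gfi1b, a repressor needed for red cells and platelets, was at 0.153 ± 0.044 CPM in ESC and 1.72 ± 2.37 CPM in Eo- cells, a log2 difference of 2.67 ± 0.95, and 1.84 ± 0.50 without set 1.

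In both sorted fractions set 1 also carried the highest summed level of endothelial, visceral endoderm and feeder markers, though not the highest level of every marker. The 9 endothelial markers tested were all highest in Eo- 1 among Eo- libraries, and 8 of 9 were highest in Eo+ 1. For visceral endoderm, an extraembryonic layer that borders the yolk sac, the counts were 9 of 10 and 10 of 10. For the 17 regulators, Nfe2 included, they were 11 and 12, and for 7 megakaryocyte markers 5 and 3. For 9 feeder markers they were 5 and 4, and Thy1, Dcn, Loxl1 and S100a4 were below another library in both fractions. Over all tested loci 28.7% were highest in Eo- 1 and 26.7% in Eo+ 1. Sums were taken over marker loci not joined by assembly, tested or not, so the endothelial sum includes Emcn and leaves out Egfl7. The summed level of endothelial markers was 218 CPM in Eo- 1 against 39.7 to 77.3 CPM in Eo- 2, 5 and 6. In Eo+ 1, 2, 5 and 6 it was 456, 276, 206 and 383 CPM, above the Eo- sum in every set. The summed level of megakaryocyte markers was 21.6 CPM in Eo- 1 against 1.85 to 3.40 CPM in Eo- 2, 5 and 6. Of this Itga2b, an integrin gene, held 19.4 CPM in Eo- 1. For visceral endoderm markers it was 19.1 against 6.95 to 8.04 CPM in Eo- and, in Eo+ libraries, 101 against 12.05 to 53.7 CPM. Feeder markers summed to 268 CPM in ESC 1 against 106 to 198 CPM in the other ESC libraries, to 49.8 against 33.9 to 42.4 CPM in Eo- and to 58.2 against 28.9 to 33.2 CPM in Eo+ libraries. Etv2 was not highest in set 1, at 0.626 times the highest Eo- and 0.429 times the highest Eo+ library of the others. Leukocyte and mast cell markers summed to 28.8 to 37.0 CPM in Eo- libraries, with Eo- 1 within that range, but 6 of 10 tested were highest in Eo- 1 and 5 of 10 in Eo+ 1. Among them Tyrobp was 5.63 times and Lyz2 4.68 times the next Eo- library. In Eo- 1 the platelet gene Ppbp and the mast cell gene Tpsb2 were at 0 counts and Mcpt8 was under the floor, and no other marker of the 5 lists was. The part of these other cell types in the globin levels was not tested.

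By group, 6 of 9 endothelial markers rose and 1 fell in Eo- vs ESC, and 2 rose and 2 fell in Eo+ vs Eo-. Cdh5, the endothelial cadherin gene, had a log2 difference of 4.67 ± 1.01 in Eo- vs ESC, and 3.97 ± 0.49 without set 1. Kdr, a receptor of vascular precursors, rose in Eo+ vs Eo- by 3.35 ± 0.53 (adjusted p = 0.000181). Pecam1, an adhesion gene of endothelium and also of ESCs, fell in Eo- vs ESC by 1.71 ± 0.41 (adjusted p = 0.00266) and in Eo+ vs Eo- by 2.77 ± 0.59 (adjusted p = 0.00193). Of 7 megakaryocyte markers 1 rose and 3 fell in Eo- vs ESC. Of 10 leukocyte markers 2 rose and 6 fell, and of 9 feeder markers 1 rose and 6 fell. Of 10 visceral endoderm markers 3 rose and 1 fell in Eo- vs ESC, and 7 rose and 0 fell in Eo+ vs Eo-. Some markers on these lists passed the filter only through the group in which they were high, so these counts are a description.

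Among the 49 loci that stood out in Eo- 1, those with the largest ratio to the next Eo- library included Oit3 (39.3), Hbb-bh1 (28.9), Hba-x (14.8), Hapln1 (14.7), Gpr182 (13.6), Samsn1 (12.5), Hba-a1 (12.3) and Hbb-y (11.6). The globins were picked for this pattern, so their place here is no finding. Gpr182 encodes a receptor of endothelial cells. Of the 49 loci, 11 also stood out in Eo+ 1, which is 22.4% of the Eo- 1 list and 17.2% of the Eo+ 1 list. They were Cdh5, Eltd1, Gimap4, Hapln1, Hbb-bh1, Hoxb4, Hoxb5, Igf1, Oit3, Samsn1 and Tek, and Hbb-bh1 was the only member among them.

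**Figure D5:**
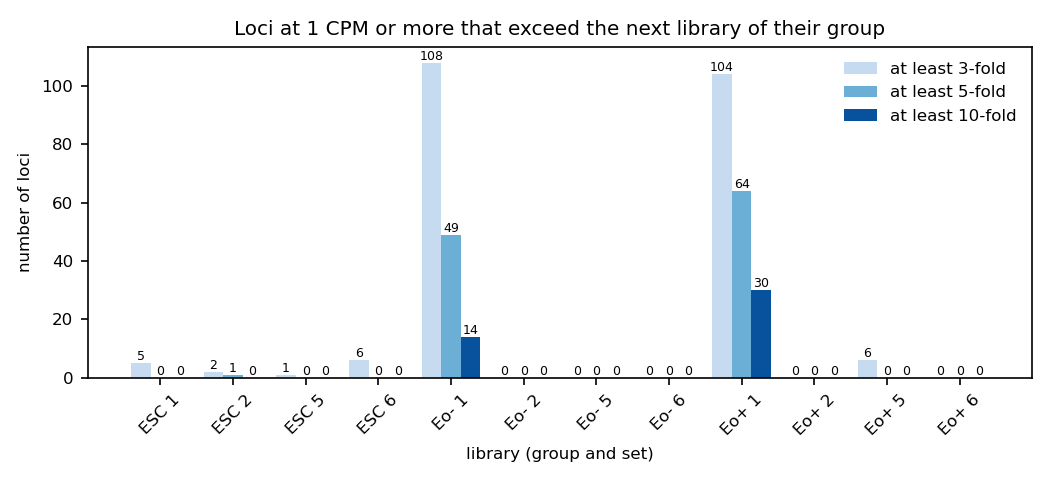
Number of loci at 1 CPM or more whose level in the named library exceeded the next library of its group at least 3-fold, 5-fold or 10-fold. Eo- 1 has 108, 49 and 14 such loci and Eo+ 1 has 104, 64 and 30, whereas no other library has more than 6 at 3-fold.

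The genes whose pattern was most like that of Hbb-bh1 were ranked among 14475 tested loci with a symbol by Pearson's r over the 12 libraries, in log2(CPM + 0.5). The first 10 included Gimap4 (0.971), Eltd1 (0.970), Rcsd1 (0.961), Nfe2 (0.947), Gja4 (0.940), Gucy1a3 (0.938), Ctse (0.938), Slc18a2 (0.937) and Plxnc1 (0.926). Nfe2 was the member closest to Hbb-bh1, and the other members ranked 15 (Hbb-y), 27 (Hba-x), 46 (Alas2), 48 (Hba-a1) and 181 (Epor). The endothelial genes Cdh5 and Tie1 ranked 12 and 13, and Tal1 ranked 1183. All these correlations share the 12 libraries and the 2 high libraries of set 1, and without Eo- 1 only 5 of the 10 remained among the first 10.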

How the data were processed

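Poly(A) RNA of 12 libraries was sequenced as stranded 2 × 100 base pairs. The authors mapped reads to mm10 with STAR, assembled transcripts with Cufflinks and Cuffmerge over Ensembl, and counted reads per locus with HTSeq, per the labels and the study's methods. The submitters' processing notes name STAR 2.0.4, Cufflinks 2.2.1 and HTSeq 0.6.1. The deposited raw table holds whole-number counts for 80012 loci and 5 tally lines, which were left out. HTSeq set aside 22.39% to 26.17% of alignments as not unique and 2.652% to 3.595% as outside any locus. The deposited normalized table, a signal per locus that the authors scaled per library, served only to name the 22187 loci of an alternative. No column belonged to another sample (0 columns).

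Counts were analysed with limma 3.58.1 (voom) in R 4.3.3, with TMM library sizes from edgeR 4.0.16. Loci with a group mean above 0.1 FPKM in any group were tested, which left 30047 loci, of which 12840 are not in the normalized table. The fit had 1 mean per group over all 12 libraries, the two-sided tests used 14.63 degrees of freedom each, and a locus was called at a Benjamini-Hochberg adjusted p of at most 0.05 over all loci tested. All adjusted p-values in the text come from limma. All 7 members passed the filter, Hbb-y and Hba-a1 only through Eo- and Hbb-bh1, Hba-x and Alas2 only through the sorted groups. Of other genes named, Hbb-bs, Hbb-bt, Slc4a1, Tmod1, Lyl1, Gfi1b, Cdh5, Hbq1a and Mb passed it only through groups in which they were high, so their differences are given without a p-value, although list counts include them unless stated. Of 145 genes on all lists 140 were found as loci, and Hbb-b1, Hbb-b2, Ahsp, Zfpm1 and Cbfa2t3 were not analysed here. Members and gene lists were chosen with earlier results of these data known. The rule for naming list genes took those with the most CPM, those with the largest rise or fall among called genes per comparison, and products restricted to red cells, besides loci of the globin domains, the 10 loci most like Hbb-bh1 and the 10 that stood out most in Eo- 1. Some genes under the rule are not reported here, and genes named beyond the rule were chosen after their values were seen.

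The sorted fractions of a number were paired, because the study describes 4 differentiation sets and the deviations of Eo- and Eo+ libraries of one number from their group means correlated at 0.577, 0.299, 0.374 and 0.411 over 14150 loci. For ESC this held only in part. The correlations with Eo- were 0.281, 0.457, -0.112 and 0.00571 in sets 1, 2, 5 and 6, and those with Eo+ were -0.11 to 0.133. Labels do not say that the libraries of a group came from separate cultures, so p-values measure the spread between these libraries. Floors of 3 counts cover counting error only, since reads carried no molecular identifiers. Alternatives were library totals, DESeq2 1.42.0 size factors and Wald test, edgeR's quasi-likelihood test, other filters, the replicate block and leaving out libraries or sets. The tests were tried on simulated counts. Promoters are RefSeq sequences on GRCm38.p6.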

Additional observations from a re-analysis of the deposited data

Results flagged for a closer look

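The level of each of the 7 genes was examined in each group of 4 libraries for a library far from the rest, taking the gap from the highest or lowest library to its neighbour as a share of the group's range. The gap exceeded Dixon's 95% critical value for 4 samples in 11 of 21 cases. Such a gap arises by chance in about 1 in 20 groups of unselected values, but these genes were picked because a few libraries held most of their counts, so the shares are a description and not a test. In 10 of the 11 the library was that of set 1. In Eo- cells the share was 0.985 for Hbb-bh1, 0.951 for Hba-x, 0.940 for Hbb-y, 0.953 for Hba-a1, 0.907 for Alas2 and 0.955 for Nfe2, all for Eo- 1. In Eo+ cells it was 0.868 for Hbb-bh1, 0.888 for Hba-x, 0.849 for Alas2 and 0.836 for Nfe2, all for Eo+ 1. The remaining case was Alas2 in ESC, at 0.940 for ESC 6. Epor gave none in any group. These cases share their libraries and are not independent of each other.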

How the results depend on the processing

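Of 126 alternative values of the members' log2 fold changes, all 126 moved by less than the larger group SD of single libraries. Set 1 widens that SD and the alternatives share most libraries, so few values could have moved further. The count is therefore no evidence of robustness. The sign turned only where the groups overlapped. Hbb-y in Eo+ vs ESC went from 0.21 to -1.17 without set 1 and Hba-a1 there from -0.49 to 0.08 without Eo+ 6. Between the fractions Alas2 went from 0.61 to -0.14 without Eo+ 1, Nfe2 from -0.54 to 0.06 without Eo- 1, and Epor from 0.06 to -0.02 with library totals. Of the alternative values for named list genes, 245 kept their side of the threshold, 15 gained a call and 7 lost one, with no called direction reversed. The number of erythroid list genes called stayed within 1.5 times of 34, 47 and 27 under every alternative run. It was 28 to 36, 41 to 51 and 23 to 27 when single libraries were left out. With the replicate block, the pairing by set, it was 41, 51 and 35, and 36 for Eo+ vs Eo- when the 8 sorted libraries were fitted alone. The block added calls of 18 of 111 list genes between the fractions and removed 1, and the members called rose to 7, 5 and 4. Members called by edgeR's quasi-likelihood test were 7, 5 and 2 and by DESeq2 6, 3 and 2. Leaving out single libraries gave 2 to 7, 1 to 4 and 1 to 3. Without set 2 no member was called between the fractions, and without set 6 none either, against 4 without set 1. With a filter of 1 CPM in 4 libraries 3, 1 and 0 were called. Leaving out whole sets, the block over sorted libraries alone and leaving out joined loci were added after the data had been seen, and the last gave 30, 41 and 24 of 52 list genes. Loci that stood out in Eo- 1 numbered 108 at 3-fold and 14 at 10-fold, and 50 with library totals. The median Eo+ to Eo- ratio of Hbb-bh1 over the 4 sets was 0.0933, and 0.0853 with library totals. Library totals moved the median log2 fold change by 0.142 in Eo- vs ESC. Of the 10 genes most like Hbb-bh1, 4 remained with Spearman's rho and 8 with a pseudocount of 0.1. Depth limits the globins in ESC and Eo+ libraries, where several values rest on fewer than 20 counts. The cause of these changes was not tested.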
